A study of Homo sapiens with 6 samples.

Results

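The genes described here are 10 genes of the machinery that takes a cell out of G1, chosen by name: the D-type cyclins CCND1, CCND2 and CCND3, the E-type cyclins CCNE1 and CCNE2, the kinases CDK4, CDK6 and CDK2, the retinoblastoma gene RB1 and the transcription factor gene E2F1. All 10 were found among the 32364 genes of the deposited table, and all 10 passed the filter on low values that left 18726 genes for testing. They were measured by mRNA sequencing in Kasumi-1, a human acute myeloid leukemia cell line with a t(8;21) translocation that fuses RUNX1 (AML1) to RUNX1T1 (ETO). The 3 control and 3 I13 libraries all came from this 1 line, and all cells carried the fusion. I13 is a histone deacetylase inhibitor, given at 0.5 µM for 48 h. Control cells were incubated for the same time, with DMSO as the study's vehicle. The study describes its sequencing results as representative of independent experiments, while the labels do not tie single libraries to separate cultures. A p-value here measures the spread between these libraries, part of which may be technical. The study also followed the cell-cycle distribution of Kasumi-1 cells at this dose and time by flow cytometry. It reported a larger share of cells in G0/G1 with longer treatment, and proposes that I13 may arrest cells there. This raises the question of how the mRNAs of the G1 machinery stood in the same treatment.

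In G1, D-type cyclins bind CDK4 or CDK6, and these kinases phosphorylate the RB protein. RB in its less phosphorylated form holds E2F factors in check. Its further phosphorylation by cyclin E with CDK2 frees E2F, which drives genes for DNA replication as well as CCNE1 and E2F1 themselves. Much of this circuit is set by protein turnover, phosphorylation and CDK inhibitor proteins, which mRNA levels do not show. In blood cells CDK6 and the D-type cyclins are well known in progenitor growth, and the RUNX1-RUNX1T1 fusion has been tied to CCND2.

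Levels are given as FPKM, the fragments on a gene scaled by the length of its exons and by the mapped fragments of its library, so that genes of different length can be set side by side. The values gave depths from 16566742 to 17221345 mapped fragments for control and from 15281052 to 16682550 for I13. Behind each value of the 10 genes stood between 71 and 13340 fragments, fewest for CCND1 and most for CDK6. Control replicate 3 and I13 replicate 2 stood apart from the other 4 libraries on the first principal component, which carried 43.3% of the variance, and the difference of each of the 10 genes is given also without them. All 9 markers of the Kasumi-1 myeloblast had a mean of at least 1 FPKM, while 0 of 3 erythroid and megakaryocyte markers and 1 of 5 lymphoid markers, CD79A, did. Of 6 mature monocyte and granulocyte markers CSF3R and LYZ did, FCGR3B was listed at 0, and their summed level was between 96.4 and 97.7 FPKM in control and between 75.1 and 82.9 FPKM in I13 libraries. Of 3 stromal and epithelial markers EPCAM did, COL1A1 and COL1A2 were listed at 0, and their summed level was between 20.8 and 26.5 FPKM in control and between 22.2 and 26.2 FPKM in I13 libraries. The part of any of these in the results was not tested.

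Among the 10 genes, the order of the mean FPKM was the same in control and I13 cells: CDK6, CDK4, E2F1, CCND2, CCNE1, RB1, CDK2, CCND3, CCNE2 and CCND1. The highest and lowest mean over all 6 libraries differed 46.2-fold. In control cells the ranges of E2F1 and CCND2 overlapped, as did those of CCNE1 and RB1, and the other neighbours in the order were separate. In I13 cells CCNE1 and RB1 alone overlapped. Kasumi-1 cells thus held CDK6 and CDK4 as the main kinase mRNAs, CCND2 as the main D-type cyclin and CCNE1 as the main E-type cyclin, with and without I13.

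**Figure D1:**
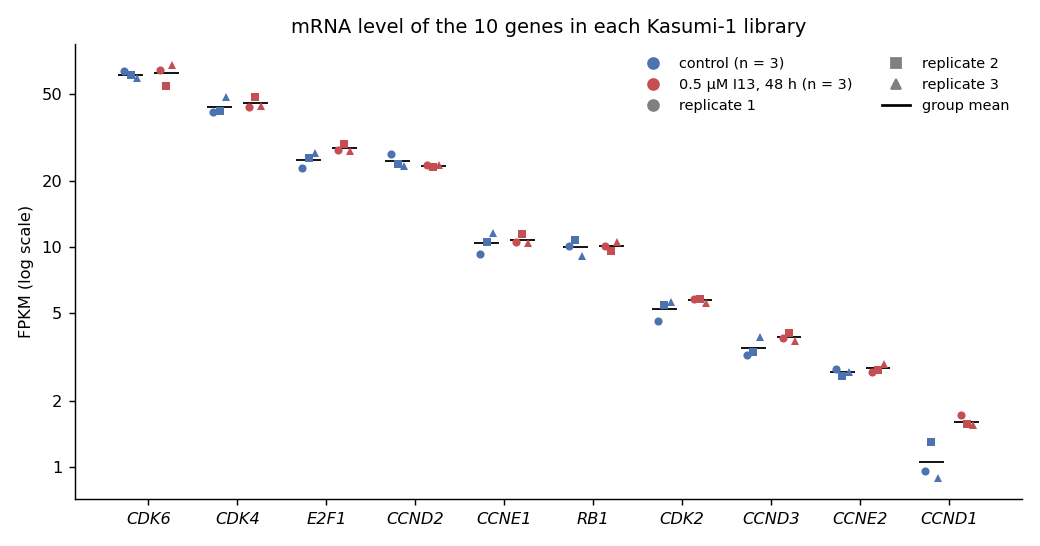
FPKM of each gene on a log axis, in order of the mean. Each point is 1 library, with its shape giving the replicate number, and black lines are the means of 3 control (blue) and 3 I13 (red) libraries. The red points lie wholly above the blue for CCND1 and E2F1, and the groups overlap for the other 8 genes.

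Between I13 and control, 2 genes of this circuit were apart and 8 overlapped. CCND1, a D-type cyclin at a low level here, was higher in I13 cells with a mean of 1.61 against 1.05 FPKM, and E2F1 was higher with 28.2 against 25.0 FPKM. In such bulk RNA, a different share of cells in a cycle phase and a different RNA level per cell cannot be told apart. These 2 of the 10 genes had an unadjusted p under 0.05 from limma, both higher in I13, where 963 of all 18726 genes tested (5.14%) had such a p, 2.55% of all tested being higher and 2.59% lower. No gene of the 10 and no gene of all tested (0%) had an adjusted p under 0.05 after Benjamini-Hochberg correction. The smallest adjusted p of all genes from limma was 0.275. The study itself reported genes both higher and lower at a corrected p of 0.05 with its own test. Why its count differs from the one here was not tested. Voom, a second limma test on the recovered fragments, gave an adjusted p under 0.05 to 5 of 13814 genes, and to 87 with a term for the 2 libraries that stand apart, with none of the 10 genes among either. It gave an unadjusted p under 0.05 to 740 genes (5.36%, with 2.56% higher), among them again CCND1 and E2F1 and no other of the 10. The log2 fold change was above 0 for 9 of the 10 genes, against 51.8% of all genes tested, and its median was 0.055 against 0.0058 for all genes.

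For the other 8 genes the 95% interval of the difference included 0, and limma's adjusted p was between 0.983 and 0.9996. Put as a fold on the scale of FPKM + 0.1, these intervals reached no lower than 0.861 and no higher than 1.32. The groups did not overlap for CCND1 and E2F1, both higher in I13, where 4.88% of all genes tested did not overlap with I13 higher and 4.64% with I13 lower. Only CCND1 of the 10 genes had both an unadjusted p under 0.05 and a log2 fold change of at least 0.58, the size threshold of the study, and 1.17% of all genes tested did so with I13 higher. At 0.59 it lay just past this size, and its difference was smaller than 0.58 with median scaling, quantile normalization or a pseudocount of 1, in the 4 libraries, and without control replicate 1, control replicate 3 or I13 replicate 1.

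**Figure D2:**
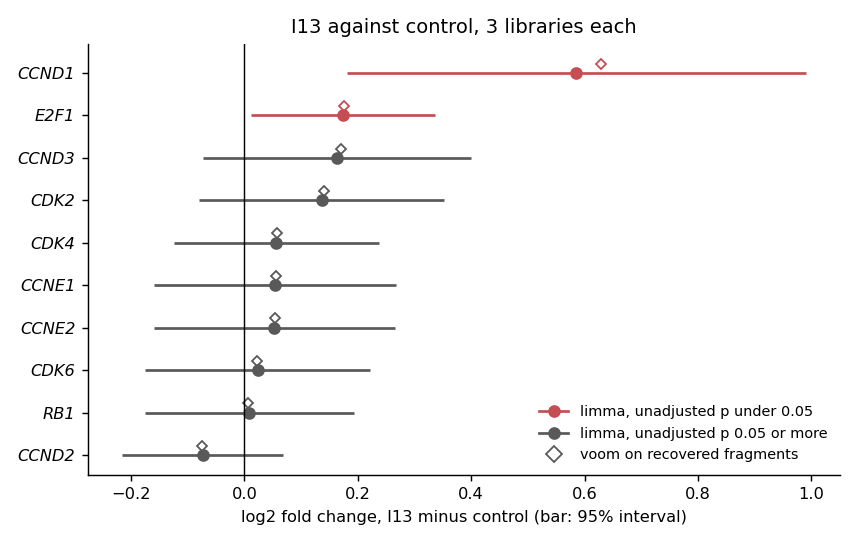
Log2 fold change of each gene, I13 minus control, from limma on log2(FPKM + 0.1), with bars for the 95% interval (3 libraries a group) and open diamonds for voom on recovered fragments. CCND1 lies at 0.59 and E2F1 at 0.17, and the bars of the other 8 genes cross 0.

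The D-type cyclins are the growth factor sensing partners of CDK4 and CDK6. CCND1 (ENSG00000110092, chr11:69641087-69654474 on the plus strand of hg38) was at 0.962, 1.30 and 0.887 FPKM in control replicates 1, 2 and 3 and at 1.72, 1.56 and 1.54 FPKM in I13 replicates 1, 2 and 3. Every I13 library lay above every control library, and the closest were control replicate 2 and I13 replicate 3. The mean was 1.05 ± 0.222 FPKM in control and 1.61 ± 0.0942 FPKM in I13 cells (SD, n = 3 each), with a log2 fold change of 0.59 (SE 0.17, 95% interval 0.18 to 0.99), an unadjusted p of 0.0111 and an adjusted p of 0.875 from limma. The values rest on few fragments, 259 over the 3 control and 372 over the 3 I13 libraries.

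By voom the log2 fold change of CCND1 was 0.63, with an unadjusted p of 0.00112 and an adjusted p of 0.306, and with a term for the 2 libraries that stand apart the adjusted p was 0.0840. Within the 4 other libraries it was 0.50 with an unadjusted p of 0.0647, which no longer passed, and between the 2 libraries that stand apart, control replicate 3 and I13 replicate 2, it was 0.75. With a pseudocount of 1 in place of 0.1 it was 0.35. LTO1, on the opposite strand, shares 497 exon bases with CCND1 (10.3% of the exons of CCND1). Whether the authors' counting used strand is not given in the sources used here. LTO1 was at 4.99 ± 0.482 FPKM in control and 5.24 ± 0.139 FPKM in I13 cells, with a log2 fold change of 0.074.

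CCND2 (ENSG00000118971, chr12:4273772-4305350, plus strand) was the D-type cyclin with the highest level. It was at 26.7, 23.9 and 23.5 FPKM in the control libraries and at 23.6, 23.1 and 23.6 FPKM in the I13 libraries. The I13 values lay close together, at or just below the lower end of the control range, and control replicate 1 was the highest. The log2 fold change was -0.07 (SE 0.060, 95% interval -0.22 to 0.068), the only 1 of the 10 below 0. It was -0.10 in the 4 libraries that do not stand apart and -0.017 without control replicate 1. CCND3 (ENSG00000112576, chr6:41934933-42050357, minus strand), the third D-type cyclin, was at 3.21, 3.32 and 3.90 FPKM in control and at 3.86, 4.07 and 3.76 FPKM in I13 libraries. Control replicates 1 and 2 lay below all I13 libraries and control replicate 3 among them. Its log2 fold change was 0.16 (SE 0.10, 95% interval -0.073 to 0.40). Without control replicate 3 it was 0.25, with an unadjusted limma p of 0.0334, and in the 4 libraries it was 0.22, with one of 0.0512.

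Summed over the 3 genes, D-type cyclin mRNA was 29.2 ± 1.41 FPKM in control and 28.9 ± 0.200 FPKM in I13 cells (SD, n = 3), and the exact two-sided permutation p was 1, where 3 against 3 cannot go below 0.1. CCND2 made up from 83.1% to 86.5% of this sum in control and from 80.4% to 81.6% in I13 libraries. CCND1 made up between 3.12% and 4.57% in control and between 5.35% and 5.89% in I13 libraries. The shares of CCND3 overlapped, from 10.4% to 13.8% in control and from 13.02% to 14.2% in I13. A higher CCND1 thus stood beside an unchanged order of the D-type cyclins, with CCND2 far above the other two.

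**Figure D3:**
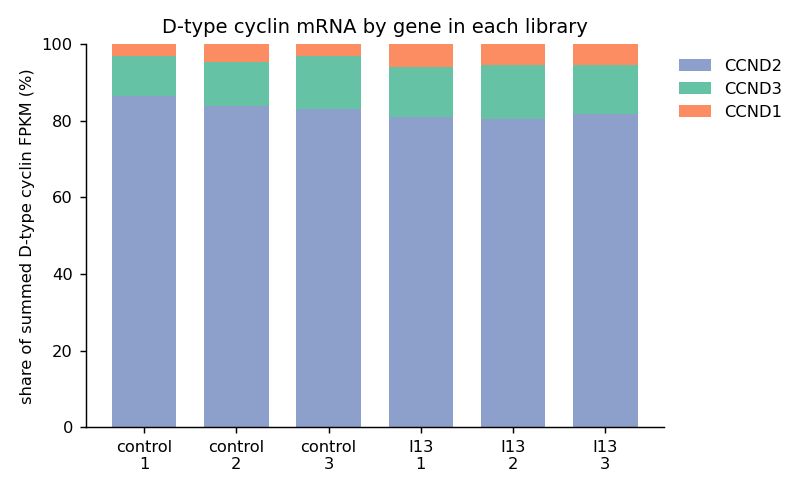
Share of the summed FPKM of CCND1, CCND2 and CCND3 that each gene held, in percent, for the 6 libraries. CCND2 held between 80.4% and 86.5% in every library, and the CCND1 band at the top was widest in I13 replicate 1, at 5.89%.

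CDK4 and CDK6 are the kinases that D-type cyclins activate. CDK6 (ENSG00000105810, chr7:92604921-92836594, minus strand) was the highest of the 10 genes, at 63.2, 60.6 and 58.7 FPKM in control and at 64.0, 54.4 and 67.8 FPKM in I13 libraries. I13 replicates 2 and 3 were the lowest and the highest of all 6 libraries, so the groups overlapped throughout. The means were 60.8 ± 2.27 and 62.0 ± 6.91 FPKM, with a log2 fold change of 0.023 (SE 0.084, 95% interval -0.17 to 0.22). In the 4 libraries it was 0.090, and without I13 replicate 2 it was 0.12. CDK4 (ENSG00000135446, chr12:57747727-57756013, minus strand) was at 41.1, 41.6 and 48.1 FPKM in control and at 43.5, 48.5 and 43.9 FPKM in I13 libraries. Its highest values were in control replicate 3 and I13 replicate 2, 1 library of each group. The log2 fold change was 0.056 (SE 0.077, 95% interval -0.12 to 0.24). It was 0.080 in the 4 libraries, 0.13 without control replicate 3 and 0.0065 without I13 replicate 2. TSPAN31 on the opposite strand shares 43.2% of the exon bases of CDK4, at means of 1.71 FPKM in control and 1.57 FPKM in I13 cells.

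The sum of CDK4 and CDK6 was 104 ± 2.33 FPKM in control and 107 ± 4.40 FPKM in I13 cells (exact permutation p = 0.4, n = 3 each). Its log2 difference was 0.039, and 0.086 in the 4 libraries. The ratio of CDK6 to CDK4 was 1.40 ± 0.166 in control and 1.38 ± 0.226 in I13 cells (exact permutation p = 0.9, n = 3 each). This ratio was lowest in the 2 libraries that stand apart, at 1.22 in control replicate 3 and 1.12 in I13 replicate 2, and between 1.46 and 1.55 in the other 4 libraries. CDK6 mRNA was above CDK4 mRNA in 6 of 6 libraries.

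The E-type cyclins act later in G1, with CDK2. CCNE1 (ENSG00000105173, chr19:29811898-29824308, plus strand) was at 9.31, 10.5 and 11.6 FPKM in control and at 10.5, 11.5 and 10.4 FPKM in I13 libraries. The I13 values lay inside the control range. The log2 fold change was 0.053 (SE 0.090, 95% interval -0.16 to 0.27), and 0.081 in the 4 libraries. CCNE2 (ENSG00000175305, chr8:94879770-94896678, minus strand) was lower, at 2.80, 2.60 and 2.70 FPKM in control and at 2.71, 2.77 and 2.93 FPKM in I13 libraries. The groups overlapped, with a log2 fold change of 0.052 (SE 0.090, 95% interval -0.16 to 0.27), and of 0.063 in the 4 libraries. INTS8 on the opposite strand shares 37.0% of the exon bases of CCNE2 and was at 7.55 FPKM in control and 6.99 FPKM in I13 cells. CCNE1 held between 76.9% and 81.0% of the summed E-type cyclin FPKM, and this sum was 13.2 ± 1.07 FPKM in control and 13.6 ± 0.585 FPKM in I13 cells (exact permutation p = 0.4, n = 3 each).

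CDK2 (ENSG00000123374, chr12:55966769-55972784, plus strand), the kinase of both E-type cyclins, was at 4.61, 5.45 and 5.63 FPKM in control and at 5.82, 5.79 and 5.60 FPKM in I13 libraries. Control replicate 1 was the lowest, and control replicate 3 lay just above I13 replicate 3. The log2 fold change was 0.14 (SE 0.092, 95% interval -0.080 to 0.35), and the means of 5.23 and 5.74 FPKM differed by less than the control SD of 0.544 FPKM. In the 4 libraries the difference on the log2 scale was 0.18, and it was 0.050 without control replicate 1.

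RB1 (ENSG00000139687, chr13:48303726-48599436, plus strand), which encodes the RB protein, was at 10.1, 10.8 and 9.16 FPKM in control and at 10.1, 9.63 and 10.5 FPKM in I13 libraries. The I13 values lay inside the control range. The means were 10.04 ± 0.842 and 10.1 ± 0.447 FPKM, with a log2 fold change of 0.0081 (SE 0.078, 95% interval -0.18 to 0.19). This was the smallest of the 10 in absolute size, and it was -0.024 in the 4 libraries. RB1 mRNA thus stood at about the level of CCNE1 in both groups.

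E2F1 (ENSG00000101412, chr20:33675683-33686404, minus strand) encodes an E2F factor that RB binds, and is a gene that E2F factors themselves activate. It was at 23.0, 25.4 and 26.7 FPKM in control and at 27.7, 29.6 and 27.3 FPKM in I13 libraries. Every I13 library lay above every control library, and control replicate 3 and I13 replicate 3 were the closest. The mean was 25.0 ± 1.90 FPKM in control and 28.2 ± 1.26 FPKM in I13 cells (SD, n = 3 each), 1.13 times as high, with a log2 fold change of 0.17 (SE 0.069, 95% interval 0.012 to 0.34), an unadjusted p of 0.0390 and an adjusted p of 0.947 from limma.

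The difference in E2F1 rested on single libraries more than that in CCND1. Leaving out control replicate 1 gave a log2 fold change of 0.11 with an unadjusted limma p of 0.128, and leaving out I13 replicate 2 gave 0.14 with one of 0.109. The unadjusted p was 0.0723 without control replicate 2, 0.0655 without I13 replicate 1 and 0.0530 without I13 replicate 3, and with control replicate 3 left out it was 0.0169. Within the 4 libraries that do not stand apart the log2 fold change was 0.19, with an unadjusted p of 0.0323, and between the other two it was 0.15. The ratio of E2F1 to RB1 was 2.51 ± 0.358 in control and 2.80 ± 0.248 in I13 cells, and the groups overlapped (exact permutation p = 0.3, n = 3 each). Its log2 difference of 0.17 was 0.28 without control replicate 3 and 0.097 without I13 replicate 2.

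The E2F1 promoter is shown because E2F1 is both a member of the circuit and a target of it. RefSeq on GRCh38.p14 gives its start, and in the 250 bases before to 50 after it the motifs TTTCCCGC, TTTCGCGC, TTTGCCGC and TTTGGCGC, common forms of the E2F site, were searched on both strands. The stretch at chr20:33686386-33686445 on the minus strand holds 2 of them, in capitals, whose first bases lie 33 and 20 bases before the start, the former on the other strand.
E2F1: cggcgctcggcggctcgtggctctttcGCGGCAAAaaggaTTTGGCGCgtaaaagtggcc
Of all 27305 genes with a promoter entry, 3.99% held at least 1 such motif. Promoter entries were found for 6 of the 10 genes, CCND3, CCNE1, CDK4, CDK6, RB1 and E2F1, and E2F1 was the 1 that held a motif. A match describes these letters only. Over the tested genes with a promoter entry, the median log2 fold change was 0.010 for the 652 with a motif and 0.0050 for the 9339 without.

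The spread between replicates set what could be seen. Among the 10 genes the coefficient of variation had a median of 8.70% in control and 4.45% in I13 libraries, against 7.39% and 7.98% for all 11517 genes that averaged 1 FPKM or more. CCND1 varied most in control, at 21.1%, and CCND2 least in I13, at 1.07%. Part of this spread followed the 2 libraries that stand apart. Their mean log2 level minus that of the other 4 libraries was 0.18 for CDK4, 0.18 for CCNE1, 0.17 for CCND3, 0.13 for E2F1 and 0.092 for CDK2. It was -0.011 for CCNE2, -0.064 for CCND2, -0.15 for RB1, -0.18 for CDK6 and -0.18 for CCND1. For CDK4, CDK6, CCNE1, RB1 and, narrowly, CCND3 this difference was larger than that between I13 and control.

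Over the 11517 genes, the median of the same difference was 0.0072, 0.023, -0.022, -0.057 and -0.10 from the fifth with the shortest to the fifth with the longest exons. CDK6, with 12260 exon bases, is the longest of the 10 genes, and E2F1, with 2503, is the shortest. As 1 library of each group stands apart, this difference is nearly balanced between the groups. Its source is not given in the labels, which name no batch, and was not tested.

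**Figure D4:**
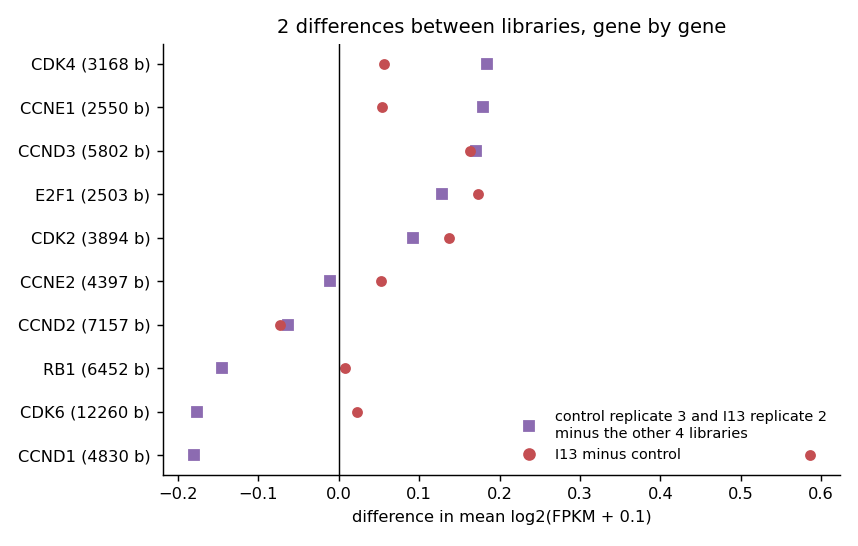
For each gene, with its exon length in bases, the difference in mean log2(FPKM + 0.1) between control replicate 3 with I13 replicate 2 and the other 4 libraries (purple squares), and between I13 and control (red circles). The squares run from -0.18 for CCND1 and CDK6 to 0.18 for CDK4, while the circle of CCND1 lies at 0.59.

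The rest of the pathway was described with 5 lists of 79 genes, of which 77 passed the filter. With limma, 5 of the 77 had an unadjusted p under 0.05, all higher in I13 (6.49%, against 5.14% of all genes tested in either direction), and 0 had an adjusted p under 0.05. The log2 fold change was above 0 for 49 and below 0 for 28, with a median of 0.043. With control replicate 3 and I13 replicate 2 left out, 13 had an unadjusted p under 0.05, 10 of them higher, while such a p was also more common over all genes tested (8.04%, with 4.28% higher). With a term for these 2 libraries it was again 13, with 11 higher, against 7.62% of all genes and 3.7% higher. By voom it was 4, with CDC37 and CDC25A higher and CCNG2 and CCNI lower, and LIN52, MCM3 and PCNA did not pass. All of the 5 were small differences of at most 0.20 on the log2 scale.

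The RB and E2F partners are the other pocket proteins, E2F and DP factors and the MuvB and MYB-MuvB complex. Of 17 genes 14 had a log2 fold change above 0, with a median of 0.071, and LIN52 alone had an unadjusted p under 0.05. LIN52, a MuvB subunit, was at 3.73 ± 0.0679 FPKM in control and 4.31 ± 0.312 FPKM in I13 cells (log2 fold change 0.20, SE 0.084, adjusted p = 0.947), and its unadjusted p was 0.0837 by voom. MYBL2, the MYB factor that joins MuvB in cycling cells, was the highest of the list, at 98.7 ± 4.33 and 106 ± 8.82 FPKM (log2 fold change 0.095, SE 0.069). The RB relatives RBL1 and RBL2 had log2 fold changes of 0.021 and 0.078, and E2F2, an activating E2F like E2F1, one of 0.11. The 3 genes below 0 were E2F3, also an activating E2F, at -0.029, E2F5 at -0.053 and RBBP4 at -0.025. None of these had an unadjusted p under 0.05 from limma on all 6 libraries. In the 4 libraries that do not stand apart RBL2 did, at 0.0454 (log2 fold change 0.14), while LIN52 did not, at 0.0579. TFDP1, a DP partner of E2F factors, was at 72.1 ± 1.45 FPKM in control and 75.9 ± 1.01 FPKM in I13 cells (log2 fold change 0.072, SE 0.040).

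The CDK inhibitors restrain the kinases. Of 7 genes 6 were tested, and 0 had an unadjusted p under 0.05 with limma or with voom, with 3 above and 3 below 0. In the 4 libraries 1 did, CDKN1B, which was lower. CDKN1A, which encodes p21, was at a low level of 0.438 ± 0.0503 FPKM in control and 0.520 ± 0.0431 FPKM in I13 cells (log2 fold change 0.21, SE 0.22). CDKN1B (p27) was at 49.6 ± 4.31 and 46.1 ± 0.433 FPKM (log2 fold change -0.10, SE 0.066), and its log2 fold change in the 4 libraries was -0.16 with an unadjusted p of 0.0421. CDKN2C (p18), an inhibitor of CDK4 and CDK6, was at 60.3 ± 2.74 and 62.8 ± 2.22 FPKM (log2 fold change 0.057, SE 0.052). CDKN2A had the largest difference of the list among genes with at least 1 FPKM, from 2.69 to 2.43 FPKM (log2 fold change -0.14, SE 0.11).

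Of 17 genes for the activation of CDKs and the turnover of G1 cyclins, 6 were above and 11 below 0, and 2 had an unadjusted p under 0.05, both higher. CDC37, the chaperone partner that brings CDK4 and CDK6 to HSP90, was at 37.8, 39.1 and 40.4 FPKM in control and at 44.2, 43.2 and 45.0 FPKM in I13 libraries. The groups did not overlap, with a log2 fold change of 0.18 (SE 0.046), an unadjusted p of 0.00610 and an adjusted p of 0.805 from limma. CDC25A, the phosphatase that activates CDK2, was at 17.9, 17.1 and 18.7 FPKM in control and at 18.6, 20.9 and 20.5 FPKM in I13 libraries, which overlapped narrowly (log2 fold change 0.16, SE 0.064, adjusted p = 0.947). CKS1B, a CDK binding subunit that helps to degrade p27, was the highest of the list, at 47.8 and 48.9 FPKM (log2 fold change 0.034, SE 0.047).

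Among 13 tested genes of the other cyclins and CDKs, 5 were above and 8 below 0 and 0 had an unadjusted p under 0.05 with limma, while voom gave such a p to CCNG2 and CCNI, both lower, as did the fit of the 4 libraries. CCNG2, a cyclin tied to cell-cycle exit, was at 4.46 ± 0.599 FPKM in control and 3.79 ± 0.256 FPKM in I13 cells (log2 fold change -0.22, SE 0.12). CCNI, the highest of the list, was at 83.6 ± 7.10 and 75.0 ± 1.20 FPKM (log2 fold change -0.15, SE 0.066). In the 4 libraries the log2 fold change was -0.27 for CCNG2 and -0.23 for CCNI, with unadjusted p-values of 0.0457 and 0.00446. The S and G2 phase cyclins CCNA2 and CCNB1 had log2 fold changes of -0.024 and 0.056 and CDK1, the mitotic kinase, of 0.053, with SEs of 0.068, 0.056 and 0.075.

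Of 24 E2F target genes, most of which serve DNA replication or nucleotide supply, 21 had a log2 fold change above 0. Their median was 0.069 against 0.0058 for all genes tested, and 2 had an unadjusted limma p under 0.05, both higher. MCM3, a subunit of the replicative helicase, was at 83.4 ± 3.55 FPKM in control and 90.5 ± 3.06 FPKM in I13 cells (log2 fold change 0.12, SE 0.050, adjusted p = 0.947). PCNA, the sliding clamp of DNA polymerases, was at 143 ± 5.30 and 156 ± 6.61 FPKM (log2 fold change 0.12, SE 0.051, adjusted p = 0.947). GINS2, which joins the helicase, had the largest difference of the list, from 11.5 ± 0.736 to 12.7 ± 0.0776 FPKM (log2 fold change 0.14, SE 0.062). Within the 4 libraries that do not stand apart, 8 of the 24 had an unadjusted p under 0.05, all higher, against 4.28% of all genes tested there, and by voom on all 6 libraries 0 of the 24 did, with unadjusted p-values of 0.0694 for MCM3 and 0.0697 for PCNA. These 24 genes share cells and cycle phase and do not count as separate evidence.

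**Figure D5:**
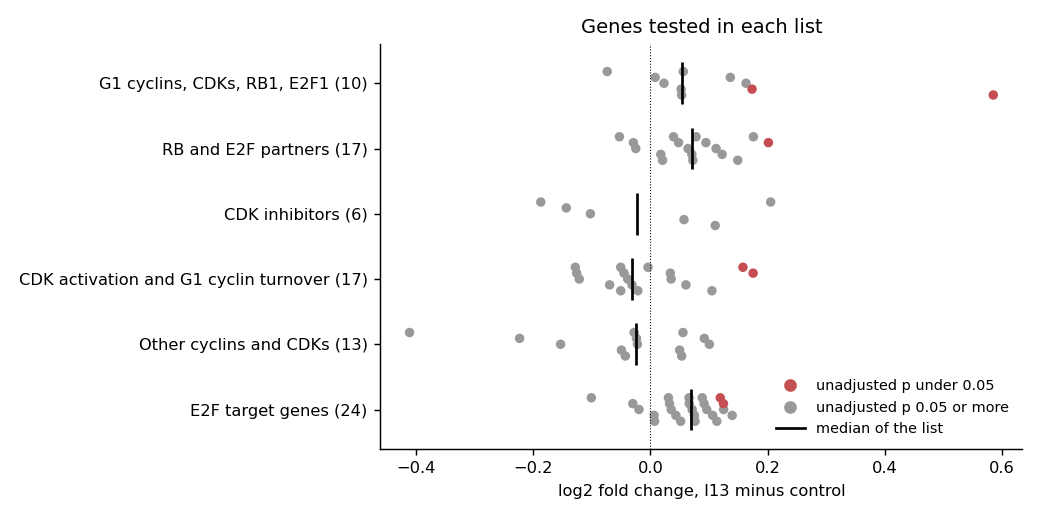
Log2 fold change, I13 minus control, of each tested gene in the 10 genes and the 5 lists, with the number tested in brackets. Red points have an unadjusted limma p under 0.05 and black lines are list medians, which run from -0.031 for CDK activation and turnover to 0.071 for RB and E2F partners.

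The 5 pathway genes with an unadjusted p under 0.05 from limma are shown with 30 bases of their RefSeq promoters (GRCh38.p14). Each held an E2F motif of the kind found at E2F1, given in capitals.
LIN52: tggaacctcgtTTTCCCGCcgacggttggc
CDC25A: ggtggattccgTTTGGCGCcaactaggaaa
CDC37: acagggcggggTTTCCCGCgctcggcggaa
MCM3: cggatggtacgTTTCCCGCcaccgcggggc
PCNA: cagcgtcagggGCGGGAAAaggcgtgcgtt
They lie at chr14:74084920-74084949 on the plus strand for LIN52 and, on the minus strand, at chr3:48188443-48188472 for CDC25A, chr19:10403570-10403599 for CDC37, chr6:52284898-52284927 for MCM3 and chr20:5126663-5126692 for PCNA. The first base of the motif lies 25, 44, 46, 174 and 59 bases before the start in the order printed, with that of PCNA on the other strand. MCM3 holds 1 more that is not shown, and PCNA has 2 promoter entries, of which 1 is shown. Such a motif was held by 3.99% of all genes with a promoter entry. It was held by 14 of 21 E2F target genes with an entry and by 5 of 15 RB and E2F partners. For CDK activation and turnover it was 3 of 17, for other cyclins and CDKs 1 of 14 and for CDK inhibitors 0 of 6. Of the tested genes with a motif 3.99% had an unadjusted p under 0.05 from limma, and of those without 4.09%. The difference between these shares was not tested.

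As a description over 6 libraries, each of the 10 genes was matched with the gene, among 73 pathway genes with at least 1 FPKM, whose log2 level ran most like its own. The closest match was between CDK4 and TK1, thymidine kinase, with a Pearson r of 0.995. CCND1 ran most like GINS2 (r = 0.980), CCND3 like MCM5 (r = 0.969), CCNE1 like E2F2 (r = 0.963), CDK6 like RBL2 (r = 0.956), RB1 like RBBP4 (r = 0.948) and E2F1 like CDKN2C (r = 0.940). CDK2 ran most like CDC45 (r = 0.924), CCND2 like CCNG2 (r = 0.903) and CCNE2 like CDC25A (r = 0.708). These points share the 2 groups and the 2 libraries that stand apart, and the matches were picked as the highest of 73.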

How the data were processed

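Total RNA of Kasumi-1 cells was made into libraries with a stranded mRNA kit, per the labels, and sequenced by the authors on an Illumina instrument. The submitters' processing notes name Trimmomatic, HISAT2, Cufflinks, HTSeq and hg38, with no versions or roles. The authors deposited FPKM values per Ensembl gene for 6 libraries, grouped by the sample labels. All columns matched a sample. GENCODE 29 gave gene names and positions for 32244 of 32364 identifiers, and with its exon lengths the values of 95.4% of genes above 0 came out as whole fragments in all libraries (tolerance 0.01). For 1322 more genes, RB1 among them, the smallest common step of the values gave the fragments. Intervals cover the spread between libraries. Depth limits chiefly CCND1.

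Expression was compared in R 4.3.3 with limma 3.58.1, two-sided, on log2(FPKM + 0.1) with a variance trend and 2 groups, over genes whose FPKM averaged at least 0.1, and p-values were adjusted by Benjamini-Hochberg over all of them. Fold changes on this scale understate those of low genes. Voom was run on recovered fragments (mean of at least 10). Sums and ratios were compared by exact permutation over libraries. The code of the fits was checked on simulated counts. That check had larger planted differences and no libraries that stand apart, so it does not measure how the fits performed here. Python 3.11.15, pandas 2.3.3, numpy 2.4.6, scipy 1.17.1 and matplotlib 3.10.9 served for the rest. Alternatives were pseudocounts of 1 and 0.01, other filters and scalings, a replicate block, no trend, robust variances, the fold threshold of 0.58, voom and each library left out. Fits with a term for control replicate 3 and I13 replicate 2, or without both, were added once the values were known.

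The 10 genes, the lists and the tests were chosen with earlier results of these data known. Beside the 10 genes, the text names list genes with an unadjusted p under 0.05, the highest and the most changed gene of each list (mean FPKM of at least 1) and the closest match of each of the 10 genes. RBL1, RBL2, E2F2, E2F3, E2F5, TFDP1, CDKN1A, CDKN1B, CCNA2, CCNB1, CDK1, markers and overlapping genes were named after their values were seen.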

Additional observations from a re-analysis of the deposited data

How the results depend on the processing

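No gene of the 10 and no pathway gene had an adjusted p under 0.05 in any of 19 alternative settings, voom among them. CCND1 kept its direction in 19 of 19, with log2 fold changes between 0.35 and 0.74, and its unadjusted p under 0.05 in 18. E2F1 kept its direction in 19 of 19, between 0.11 and 0.22, and lost that p in 8. The number of the 10 genes with an unadjusted p under 0.05 was 2, and 1 with median scaling, with the replicate block, by limma without trend, in the 4 libraries that do not stand apart and with a log2 fold change of at least 0.58 required. With 1 library left out it ranged from 1 to 3. The number of pathway genes was 5, and 2 with median scaling, 1 with the replicate block, 2 by limma without trend, 13 with a term for the 2 libraries that stand apart, 13 in the other 4 libraries, 14 by voom with that term and 0 with the fold threshold. With 1 library left out it ranged from 1 (without control replicate 1) to 10 (without control replicate 3), and was 8 without I13 replicate 2. Over all genes the share with such a p was 5.14% in the main fit, 7.62% with the term and 8.04% in the 4 libraries. For median scaling, the replicate block, no trend, voom with that term and 1 library left out, this share is not given here. Those counts therefore cannot be set against all genes.

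Of the 10 genes and their sums and ratios, those that turned direction had values near 0. With 1 library left out, the log2 fold change ranged from -0.027 to 0.13 for CCNE1, from -0.043 to 0.12 for CDK6 and from -0.056 to 0.064 for RB1, and the log2 difference from -0.036 to 0.026 for the D-type cyclin sum, from -0.0055 to 0.11 for the E-type cyclin sum and from -0.13 to 0.11 for the ratio of CDK6 to CDK4. Of the values that kept their direction, the same range was -0.11 to -0.017 for CCND2, 0.0065 to 0.13 for CDK4, 0.050 to 0.19 for CDK2, 0.021 to 0.078 for CCNE2, 0.010 to 0.069 for the sum of CDK4 and CDK6 and 0.097 to 0.28 for the ratio of E2F1 to RB1. In the 4 libraries RB1 was at -0.024 and the ratio of CDK6 to CDK4 at 0.0098. For these turns the cause was not tested beyond the library left out. The labels do not say whether same-numbered libraries are paired. The correlation of deviations from the group means between same-numbered libraries was 0.0831, -0.0698 and -0.0166. Between libraries of different number it ran from -0.0640 to 0.0848, so it cannot settle whether they are paired. The replicate block is therefore given as an alternative only. Replicates differed beyond counting noise (chi-square of 3.07 to 8.26 a gene). With 3 libraries a group, the intervals of the 8 genes that did not pass leave room for differences of up to 1.32-fold, and exact tests of the sums cannot go below 0.1.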
